A study of Mus musculus with 16 samples.

Results

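The microRNAs (miRNAs) mmu-miR-138 and mmu-miR-365, miR-138 and miR-365 below, are described here across 8 sorted mouse myeloid and dendritic cell populations. They are 2 of the 604 mouse miRNAs carried by both array designs of the series, found by their names in the array files. Both were chosen because their signals in CD8+ dendritic cells (DC) were already known to be high, so every value that sets CD8+ DC against the other populations is a description with no test. Comparisons that leave out CD8+ DC did not enter that choice and were tested. miR-365, however, met the filter for testing, detection on both arrays of at least 1 population, in CD8+ DC alone. Both miRNAs were above background on both CD8+ DC arrays. miR-138 was also detected in CD4+ DC, whereas miR-365 was detected on 1 of the 2 arrays of plasmacytoid DC (PDC), MP and CD4-CD8- DC.

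RNA from cells sorted without culture was hybridised to 1-colour Agilent miRNA arrays, with 2 biological replicates for each population and 16 arrays in all. All animals were female C57Bl/6 mice aged 6 weeks, with no genetic change or treatment given in the labels, and each replicate was RNA from a pool of animals. MP (a name the labels do not spell out), macrophage and dendritic cell progenitors (MDP) and common dendritic cell progenitors (CDP) came from bone marrow of 15 mice per pool. All 3 were lineage-negative and CD135+, and MP were CD117+ CD115-, MDP CD117+ CD115+, and CDP CD117 low CD115+. Gr1+ monocytes (CD11b+ CD115+) and PDC (B220+, CD11c int, Siglec H+, CD317+) came from bone marrow of 5 mice per pool. The 3 spleen populations were CD11c+ CD3- and came from 8 mice per pool: CD4+ DC (CD8-, B220-), CD8+ DC (CD4-, B220-, CD86+) and CD4-CD8- DC. CD86, a costimulatory molecule that rises when DC mature, is listed as a sort marker for CD8+ DC alone. The arrays hold no mRNA probes, so CD8, CD4 and the other surface markers could not be checked on them. These are bulk samples, in which fewer cells of a type and less RNA per cell cannot be told apart.

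A miRNA is cut from a hairpin precursor and loaded into an Argonaute protein, and it represses messenger RNAs that pair with its seed, bases 2 to 8 counted from the 5′ end. Spleen DC fall into CD8+ cells, which are specialised in cross-presenting antigens to CD8 T cells, and CD8- cells, which favour presentation to CD4 T cells. miR-138 is best known from neurons, where it limits the growth of dendritic spines. miR-365 is encoded beside miR-193 hairpins and has been studied in fat, muscle and tumour cells.

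The mature sequences are shown because the seed decides which messages each miRNA can pair with. They are from RefSeq, 5′ to 3′, with the seed in capitals.
miR-138-5p: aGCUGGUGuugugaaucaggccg
miR-365-3p: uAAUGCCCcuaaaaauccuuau
Neither seed was shared with any other miRNA matched on the arrays, 500 of the 604 by sequence, or with any other RefSeq mouse mature miRNA in the table used. The pair is also unlike in base composition. G and C made up 56.5% of miR-138 and 31.8% of miR-365, against a median of 47.6% over the 153 tested miRNAs that matched a RefSeq sequence, 37 of which were above miR-138.

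The array probes are shown because they decide what the signals can tell apart. Each miRNA had 2 probes of 10 spots each, DNA complementary to its 3′ end, and the base that only the longer probe has is in capitals.
miR-138, 14 bases: cggcctgattcaca
miR-138, 15 bases: cggcctgattcacaA
miR-365, 21 bases: ataaggatttttaggggcatt
miR-365, 22 bases: ataaggatttttaggggcattA
The miR-138 probes pair with bases 10 to 23 and 9 to 23 of the mature miRNA and so touch no base of the seed. The miR-365 probes pair with bases 2 to 22 and 1 to 22 and cover all 7 seed bases. In the array files' build, mm9, the longer miR-138 probe maps to chr8:96848220-96848234 and chr9:122592024-122592038. The longer miR-365 probe maps to chr11:79539969-79539990 and chr16:13453988-13454009.

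Each mature sequence is made from 2 hairpins, which are shown with the mature miRNA in capitals. All 4 lie on the plus strand of RefSeq's GRCm38.p6.
Mir138-1: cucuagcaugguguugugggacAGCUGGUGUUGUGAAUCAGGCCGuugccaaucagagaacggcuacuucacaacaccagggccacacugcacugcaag
Mir138-2: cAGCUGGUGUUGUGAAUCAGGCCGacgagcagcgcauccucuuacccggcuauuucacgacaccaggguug
Mir365-1: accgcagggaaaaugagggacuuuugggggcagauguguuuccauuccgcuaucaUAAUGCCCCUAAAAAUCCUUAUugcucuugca
Mir365-2: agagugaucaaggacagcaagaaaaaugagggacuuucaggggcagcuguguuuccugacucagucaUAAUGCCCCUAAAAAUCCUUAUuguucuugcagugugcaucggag
Mir138-1 is at chr9:122682876-122682974, outside the span of any annotated gene, with the nearest gene, the lncRNA Gm51699, 56048 bases away. Mir138-2 is at chr8:94324311-94324381, inside the span of Nup93, which encodes a nuclear pore protein. Mir365-1 is at chr16:13453840-13453926, inside the spans of the lncRNAs Gm32817 and Gm53058 and 4238 bases from Mir193b. Mir365-2 is at chr11:79726400-79726511, between genes and 14365 bases from Mir193a. The annotated miR-138 hairpins are 99 and 71 bases long and matched at 54 of the 71 alignment columns without a gap. The miR-365 hairpins are 87 and 112 bases long and matched at 74 of 86 such columns. Since both copies release the same mature miRNA, the signals below cannot tell which locus was active.

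Between 16.7 and 25.4% of the spots and 116 to 174 of the 604 miRNAs were above background on an array, and no spot was saturated. The CD8+ DC array had the highest share of such spots on each design, 20.2% and 25.4%, and the most detected miRNAs, 150 and 174. Replicate 1 of every population was on array design 1 and replicate 2 on design 2, each on its own slide and scanned on its own day, so replicate, design, slide and scan day are the same split. On both slides CD8+ DC lay in row 1, column 1, with the progenitors in row 1 and the other spleen DC, monocytes and PDC in row 2. CD8+ DC and that position cannot be told apart.

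miR-138 was high in CD8+ DC, lower in CD4+ DC and not detected in the other 6 populations. Its processed signal was in scanner units, with the array software's background subtracted and no scaling between arrays. It was 96.8 on the first CD8+ DC array and 87.8 on the second. In CD4+ DC it was 31.4 and 29.5, and in CD4-CD8- DC 9.30 and 2.41. On the 10 arrays of MP, MDP, CDP, monocytes and PDC it lay between -3.87 and -0.55, below the background that the software subtracted. The arrays therefore formed 4 steps: CD8+ DC, CD4+ DC, CD4-CD8- DC, and the bone marrow populations at 0 signal or less. With 2 arrays per population, and no share of all miRNAs with such steps given, these steps are a description. Within the bone marrow populations, most neighbours in the order overlapped, and differences between values below background have no meaning as levels.

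The spots show how far each step stood from background. All 39 spots used in CD8+ DC were well above background by Feature Extraction's own mark, as were 30 of 38 in CD4+ DC. In CD4-CD8- DC 0 of 40 had that mark, but 25 of the 40 passed the software's weaker test of a signal above background, 17 of 20 on the first array and 8 of 20 on the second. In the 5 bone marrow populations together 3 spots passed that weaker test, 2 in PDC and 1 in monocytes. With the median of the negative-control spots of the same array subtracted and in units of their SD, the miR-138 signal was 24.1 and 31.8 in CD8+ DC and 9.59 and 8.98 in CD4+ DC. In CD4-CD8- DC it was 1.63 on the first array and -0.61 on the second, where the signal of 2.41 lay below the control median of 4.11. The CD4-CD8- DC signal was thus above the negative controls on 1 of the 2 arrays.

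**Figure D1:**
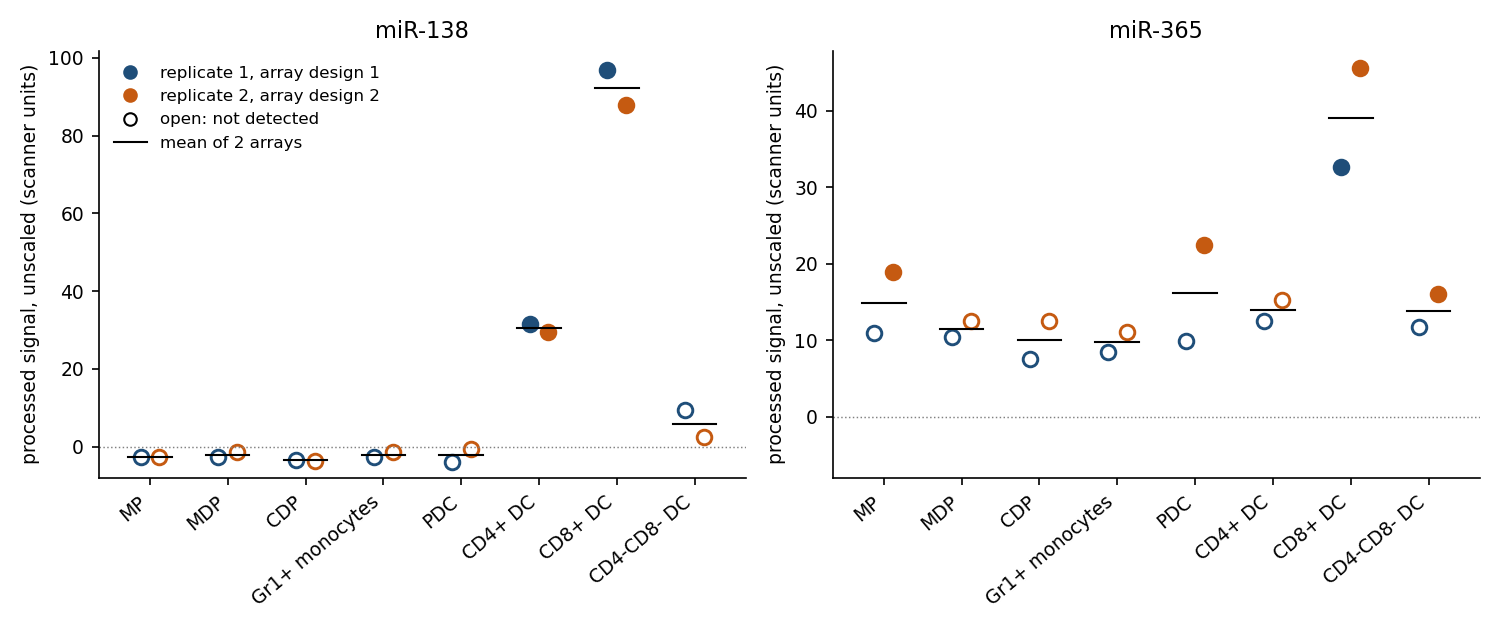
Processed signal of miR-138 (left) and miR-365 (right) on each of the 16 arrays, unscaled, by population. Filled points were detected and open points were not, colours give the replicate and its array design, and bars give the mean of 2 arrays. For miR-138 the CD8+ DC arrays at 96.8 and 87.8 stand above CD4+ DC at 31.4 and 29.5, and the bone marrow populations lie at or below 0. For miR-365 the CD8+ DC arrays at 32.6 and 45.6 stand above all others, which lie between 7.55 and 22.4.

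Scaling made the miR-138 gap between CD8+ and CD4+ DC wider. The scaling factor of an array was the 75th percentile of its signals over 88 miRNAs that every array detected. It was 392 and 465 for CD8+ DC and 770 and 659 for CD4+ DC. As a percentage of that percentile, miR-138 was 24.7 and 18.9 in CD8+ DC and 4.08 and 4.48 in CD4+ DC. CD8+ over CD4+ DC came to 6.05-fold on design 1 and 4.21-fold on design 2 after scaling, and to 3.08-fold and 2.97-fold on the unscaled signals. The order of the spleen populations was the same on both scales, but the size of the gap was not.

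Against populations where miR-138 was not detected, the fold is a lower bound. It sets the mean of both CD8+ DC arrays against the measured value or the lowest signal of a detected probe on each dim array, whichever was higher. CD8+ DC were at least 7.49-fold higher than CD4-CD8- DC, 7.29-fold higher than MP and 5.57-fold higher than MDP. The same bounds were 7.86 for CDP, 7.31 for monocytes and 8.42 for PDC. These bounds hold after scaling. They differ with the dimmest probe that each array could detect, so their order is not an order of miR-138 levels.

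On the log2 scale, with values under a floor raised to it, miR-138 was -2.21 ± 0.27 (SD, n = 2) in CD8+ DC and -4.55 ± 0.09 in CD4+ DC. The floor, 2.54% of the 75th percentile on design 1 and 1.82% on design 2, held all 12 arrays of the other populations. CD8+ DC minus the mean of the other spleen DC was 2.83 ± 0.13 (SE of the fit), 2.94 within design 1 and 2.73 within design 2. This was the highest of the 175 miRNAs tested, those that at least 1 population showed on both of its arrays. Against the mean of the 7 other populations it was 3.19 ± 0.11, which was the highest as well. Values on the 12 arrays at the floor have no spread, so both SE may be too small. In the comparison with the other spleen DC, 25.7% of the tested miRNAs were called higher (limma, adjusted p under 0.05) and 33.1% in either direction, and against the 7 other populations 61.7% in either direction. The members were picked from these contrasts, so nothing is read from their place in them.

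Both miR-138 probes gave the same order. The longer probe read 122 and 115 in CD8+ DC, 43.7 and 40.6 in CD4+ DC, and 12.7 and 4.36 in CD4-CD8- DC. The shorter probe read 71.7 and 60.3 in CD8+ DC, 19.1 and 18.4 in CD4+ DC, and 5.95 and 0.47 in CD4-CD8- DC. With 1 more paired base, the longer probe was 1.70 and 1.91 times as bright in CD8+ DC and 2.29 and 2.21 times as bright in CD4+ DC. With outlier spots left out, the dimmest CD8+ DC spot was brighter than the brightest spot of any other population for each probe on each design. An outlier spot on the shorter probe of monocytes replicate 1 read 4386. The closest pair was 57.1 against 47.9, on the longer probe of design 1. No share over all miRNAs is given for such gaps between spots, here or for miR-365, so nothing is read from them.

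**Figure D2:**
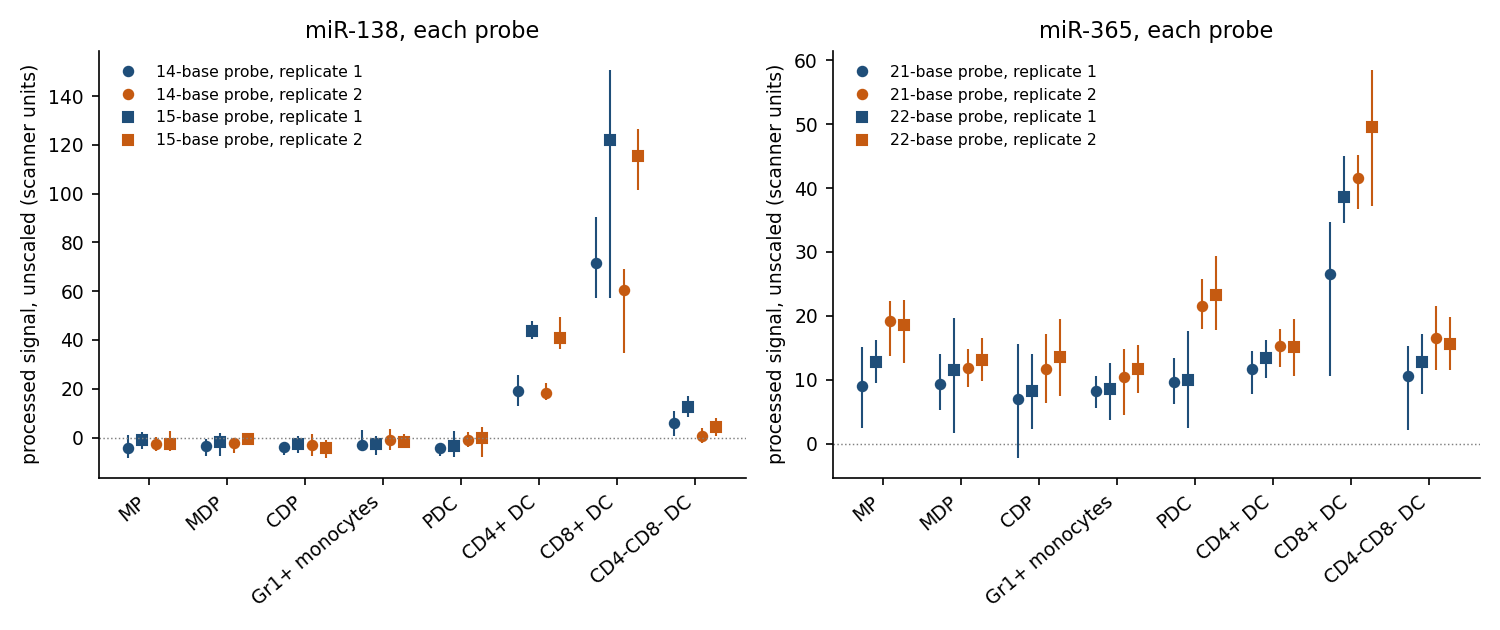
Processed signal of each probe of miR-138 (left) and miR-365 (right), unscaled, by population. Points are means over the spots used, lines run from the lowest to the highest of those spots, circles are the shorter and squares the longer probe, and colours give the replicate. The longer miR-138 probe reads 122 and 115 in CD8+ DC against 71.7 and 60.3 for the shorter one. Among the spots used, set against the same probe of the same replicate, only the shorter miR-365 probe of replicate 1 has CD8+ DC spots that reach into the range of another population, at 10.66 against 15.5 in CDP.

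miR-365 was also highest in CD8+ DC, with lower signals in the other populations. Its unscaled signal was 32.6 and 45.6 in CD8+ DC. In the other spleen DC it was 12.5 and 15.2 (CD4+) and 11.7 and 16.04 (CD4-CD8-). Among the bone marrow cells it was 9.85 and 22.4 in PDC, 10.9 and 18.8 in MP, 10.4 and 12.5 in MDP, 7.55 and 12.6 in CDP, and 8.39 and 11.1 in monocytes. Both CD8+ DC arrays were above all 14 others. The share of all miRNAs separated in this way is not given here, so nothing is read from it. The other 7 populations, ordered by mean signal as PDC, MP, CD4+ DC, CD4-CD8- DC, MDP, CDP and monocytes, each overlapped the next. Populations further apart in that order did not all overlap, and CD4+ DC at 12.5 and 15.2 lay above monocytes at 8.39 and 11.1. This order holds for unscaled signals only. As percentages of the 75th percentile, CD4+ DC at 1.62 and 2.31 were level with monocytes at 1.61 and 2.31. On that scale MP at 2.51 and 3.54 lay above CD4+ DC without overlap. In every population the second replicate, on design 2, was the brighter.

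The spots of miR-365 differed from those of miR-138 in the populations outside CD8+ DC. In each of the 8 populations 36 or more of the 38 or 39 spots used passed the software's weaker test of a signal above background. That test was passed widely, and on each array 28.3 to 37.6% of the 604 miRNAs had at least a 0.5 share of their spots past it. Well above background were 37 of 38 spots in CD8+ DC, and outside CD8+ DC fewer, with 20 of 39 in PDC, 18 of 38 in MP, 9 of 39 in CD4-CD8- DC, 7 of 38 in CD4+ DC, 3 in CDP, 1 in MDP and 0 in monocytes. All of the marked spots in PDC, MP, CD4-CD8- DC, CD4+ DC and CDP were on replicate 2. The miR-365 signal was above the median of the negative-control spots on all 16 arrays. Outside CD8+ DC it exceeded that median by 0.753 to 6.06 of their SD, lowest on the first CDP array, with 7.55 against a median of 4.97 and an SD of 3.42.

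After scaling, miR-365 was 8.33% and 9.79% of the 75th percentile in CD8+ DC and between 1.49% and 3.74% on the other 14 arrays. On the log2 scale it was -3.47 ± 0.16 (SD, n = 2) in CD8+ DC, and every other population had its replicate 1 array at the floor. CD8+ DC minus the mean of the other spleen DC was 1.82 ± 0.16 (SE), 1.71 within design 1 and 1.92 within design 2, the sixth highest of the 175. Against the mean of the 7 other populations it was 1.77 ± 0.14, at rank 12. With 7 of 16 arrays at the floor, these SE may be too small as well. CD8+ DC were at least 3.63-fold higher than CD4+ DC, 3.29-fold higher than CDP, 3.06-fold higher than monocytes and 2.33-fold higher than MDP, in which miR-365 was detected on no array. These bounds hold after scaling only, and the unscaled ratios to CD4+ DC, 2.61 and 2.99, were below theirs. On design 2 alone, where the other side was detected, the scaled ratio was 3.38 against CD4-CD8- DC, 3.83 against PDC and 2.77 against MP. Unscaled, CD8+ DC were between 2.04 and 4.33 times the other populations of the same design.

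The miR-365 probes were closer to each other than the miR-138 probes. The longer one read 38.7 and 49.5 in CD8+ DC and the shorter one 26.6 and 41.6, ratios of 1.45 and 1.19. Where other populations were detected, on replicate 2 of PDC, MP and CD4-CD8- DC, the ratios were 1.08, 0.968 and 0.947. On the shorter probe of design 1 the dimmest CD8+ DC spot was 10.66 and the brightest spot elsewhere 15.5, in CDP. On the other 3 combinations of probe and design the spots used did not overlap, with 37.2 against 29.3 in PDC on the longer probe of design 2. An outlier CD8+ DC spot left out on the longer probe of design 1 read 15.3, below 19.6 in MDP.

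**Figure D3:**
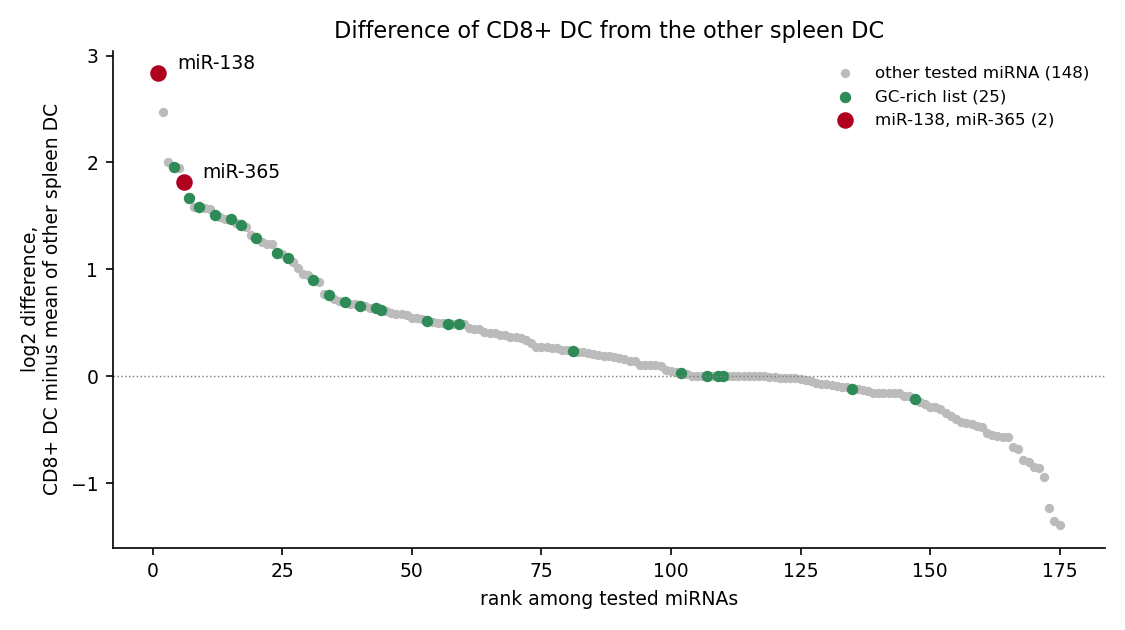
Log2 difference of CD8+ DC from the mean of the other spleen DC for the 175 tested miRNAs, ranked from highest to lowest. Red points are miR-138 at 2.83 and miR-365 at 1.82, green points are the 25 GC-rich miRNAs, and grey points are the rest. Of the GC-rich miRNAs 20 lie above 0, as do 104 of all 175.

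Other groups of miRNAs moved with CD8+ DC, and their part in these values was not tested. The 25 tested miRNAs with a G and C share of at least 0.6 had a median difference of 0.66 against 0.19 over all 175, and 20 of them were above 0. Among those named by the smallest F-test p, miR-1224 differed by 1.58, miR-331-3p by 0.70, miR-1906 by 0.62 and miR-532-3p by 0. Their summed level, as a percentage of the 75th percentile, was 490 and 507 in CD8+ DC and 145 to 290 on the other 14 arrays. miR-138 and miR-365 fall outside this list. miR-138, at 56.5%, was below its limit of 0.6 but among the more GC-rich, with 37 of the 153 matched tested miRNAs above it. miR-365 was one of the least GC-rich, with 147 of the 153 above it.

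Markers of other cells gave a mixed reading. The summed level of the erythroid miRNAs was 129 and 54.7 in CD8+ DC, 84.3 and 29.6 in CD4+ DC, 21.1 and 17.1 in CD4-CD8- DC, and 2.46 to 53.6 on the bone marrow arrays. It came from miR-451 and miR-486, while miR-144, the third erythroid marker, was not detected in CD8+ DC. The lymphocyte miRNAs (miR-150 and the miR-181 family) summed to 73.8 and 90.1 in CD8+ DC, inside the range of 44.4 to 343 elsewhere, and 1 of 5 was above 0 in the difference from the other spleen DC. All 4 muscle and all 7 stromal and endothelial markers, miR-143 and miR-145 among them, were not detected in CD8+ DC, nor were 6 of 7 epithelial and 5 of 6 neural markers, miR-9 and miR-124 among the neural ones. Their summed levels in CD8+ DC were 0.819 and 2.05 for muscle, 1.41 and 1.91 for stroma, 5.93 and 4.96 for epithelium, and 2.72 and 4.38 for neural markers. Elsewhere, over both designs, these ran from 0 to 1.95, 0.706 to 36.3, 0.334 to 11.8, and 0.629 to 4.36. Within each design CD8+ DC had the highest muscle sum, with 0.658 and 1.95 next. The same held for the neural sum, with 1.62 and 4.36 next, but not for stroma or epithelium. miR-223, the defining myeloid miRNA, was detected on both CD8+ DC arrays and differed by 0.88 from the other spleen DC.

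Over the 12 miRNAs listed for spleen DC and activation, the median difference of CD8+ DC from the other spleen DC was -0.02, and 5 of 12 were above 0. The highest were miR-221 at 1.23, miR-222 at 0.94 and miR-223 at 0.88, named after their values were seen. The members named by rule differed by 0.54 (miR-148a), 0.24 (miR-22), -0.53 (miR-146a, which restrains Toll-like receptor signalling) and -1.39 (miR-34a, a target of p53). All 12 were detected on both CD8+ DC arrays.

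In the comparison of CD4+ with CD4-CD8- DC, which did not enter the choice of members, miR-138 was higher in CD4+ DC. Its signals were 31.4 and 29.5 against 9.30 and 2.41. The log2 difference was 0.99 ± 0.15 (SE), adjusted p 0.0230 by limma, with 0.68 within design 1 and 1.303 within design 2, and CD4+ DC were at least 1.48-fold higher. It was the 1 miRNA of 175 called higher, 0.571% of those tested, and 4.57% were called in either direction. The lower calls included miR-221, the 1 of 12 spleen DC and activation miRNAs called here.

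That call was not stable. Both CD4-CD8- DC arrays lay at the floor, where values have no spread, so the SE and p may be too small. The adjusted p was 0.144 without the replicate block, 0.0518 without MP replicate 1 or 2, 0.0506 without MDP replicate 1 or 2, and 0.126 (difference 0.94) without CD4-CD8- DC replicate 2, and over all alternatives it ran from 3.76e-05 to 1. Beside it, the summed erythroid level was 84.3 and 29.6 in CD4+ DC against 21.1 and 17.1 in CD4-CD8- DC, and the lymphocyte level 57.5 and 84.5 against 104 and 165, and their part in the result was not tested.

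miR-138 was also higher in the mean of CD4+ and CD4-CD8- DC than in CDP. CDP are progenitors of these cells, with signals of -3.38 and -3.61. They came from bone marrow, 15 mice per pool, in slide row 1, and these spleen DC from 8 mice per pool in row 2. Stage, tissue, pool size and slide row therefore cannot be told apart here. The difference was 0.50 ± 0.13 (SE), adjusted p 0.0105 by limma, 0.34 within design 1 and 0.65 within design 2, and it rests on the same CD4+ DC arrays, since CD4-CD8- DC and CDP were both at the floor. Values at the floor have no spread, so this SE and p may be too small as well. In this comparison 31.4% of the tested miRNAs were called higher and 50.3% in either direction, among them 8 higher and 3 lower of the 12 spleen DC and activation miRNAs and 3 higher of the 25 GC-rich ones. The adjusted p was 0.164 without the replicate block and 0.0900 (difference 0.45) without CDP replicate 2, and over all alternatives it ran from 8.11e-05 to 1. In the remaining 5 comparisons (MDP minus MP, CDP minus MDP, monocytes minus MDP, PDC minus CDP, and PDC minus monocytes) miR-138 was at the floor on both sides, so no difference could be measured.

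miR-365 was called in 0 of the 7 comparisons that leave out CD8+ DC, with a lowest unadjusted p of 0.0981 by limma. It entered the tested set through CD8+ DC alone, the 1 population that detected it on both arrays. Outside CD8+ DC every replicate 1 array was at the floor, so each difference within design 1 was fixed at 0. The limma difference was -0.16 ± 0.19 (SE, adjusted p 0.831) for CD4+ minus CD4-CD8- DC and 0.07 ± 0.16 (adjusted p 0.796) for their mean minus CDP. It was 0.06 ± 0.19 (adjusted p 0.936) for PDC minus CDP, 0.07 ± 0.19 (adjusted p 0.833) for PDC minus monocytes and 0.04 ± 0.19 (adjusted p 1) for MDP minus MP. For CDP minus MDP it was -0.34 (adjusted p 0.440) and for monocytes minus MDP -0.35 (adjusted p 0.204), with miR-365 detected on neither side. Of the tested miRNAs 37.7% were called in PDC minus CDP, 40.6% in PDC minus monocytes, 10.3% in MDP minus MP, 37.7% in monocytes minus MDP and 0% in CDP minus MDP, where 26 of 175 had an unadjusted p under 0.05. With at most 1 detected array on either side, these comparisons had little power for miR-365, and a missed threshold does not show equal levels. With normexp background correction PDC minus monocytes was -0.90 and called (adjusted p 0.0446 by limma), but the median of all 175 was then -0.85, with 102 called lower, and miR-365 differed from that median by -0.054.

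The passenger strand of miR-138 on the arrays, miR-138*, comes from the other arm of Mir138-1. The 3′ arms of the miR-138 hairpins are shown because their differences, in capitals, are what could separate the loci.
miR-138-1-3p: cggcuaCuucacAacaccaggg
miR-138-2-3p: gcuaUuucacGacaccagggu
They differ at 2 of 20 aligned bases, and the 12-base and 13-base probes of miR-138* match miR-138-1-3p alone, but cover 1 of the 2 differences. miR-138* was detected on both CD8+ DC arrays and on no other. Its signal was 13.8 and 15.5 in CD8+ DC, 1.86 and 6.66 in CD4+ DC, -1.25 and 0.394 in CD4-CD8- DC, and below 0 on all 10 bone marrow arrays. The order of the spleen populations was that of miR-138 on the same arrays. Whether these short probes tell the arms apart in a hybridisation was not tested, so the signal does not settle the locus.

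The hairpin neighbours of miR-365 stayed near background. miR-193 from Mir193a was detected on 1 of 16 arrays, the first of CD8+ DC, at 12.2, and was 5.86 on the second and -2.74 to 3.65 elsewhere. miR-193* and miR-193b were detected on no array, with signals of at most -1.02 and 6.21. Of these 4 miRNAs, miR-365 was the one detected on both CD8+ DC arrays. Levels of different miRNAs are not set against each other, since their probes bind with different strengths.

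Likeness of pattern was measured by Pearson's r over the 8 population means. For miR-138 the 5 most alike tested miRNAs were miR-370 (0.97), miR-138* (0.96), miR-29b* (0.96), miR-676 (0.96) and miR-135a* (0.95). For miR-365 they were miR-125a-3p (0.99), miR-712 (0.98), miR-135a* (0.98), miR-29b* (0.98) and miR-676 (0.98). All 7 were highest in CD8+ DC, and 3 of the 5 were on both lists. Each was at the floor on 9 to 15 of the 16 arrays, so r mostly records 1 high population, from the same 2 arrays. miR-138 and miR-365 correlated with each other at 0.909 by Pearson, at rank 16 for miR-138 and rank 15 for miR-365, but at 0.218 by Spearman's rank correlation, in which miR-138 was tied at the floor in 6 of the 8 populations. By Spearman's measure 1 of the 5 most alike miRNAs stayed on each list, miR-370 for miR-138 and miR-712 for miR-365.

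The CD8+ DC difference was above 0 under all 28 alternatives tried for each miRNA, but its size moved. Both were chosen for high CD8+ DC signals, so the sign is a description. Against the other spleen DC the difference ran from 1.26 to 3.49 for miR-138 and from 0.62 to 2.04 for miR-365, lowest for both with normexp background correction. Dropping a bone marrow array, the replicate block or the filter could not move it, and it stayed at 2.83 and 1.82. Scaling over all 604 miRNAs, detected or not, moved the median of the tested miRNAs from 0.19 to -0.23, and the calls from 45 higher and 13 lower to 9 higher and 55 lower. Relative to that median, miR-138 differed by 2.64 as reported and 2.35 under that scaling, and miR-365 by 1.63 and 1.36. Quantile normalization gave 25 higher and 26 lower calls, and no scaling 12 higher and 18 lower. Under these 3 scalings miR-138 had the highest difference of all tested miRNAs, and miR-365 ranked 5 or 6. miR-138 ranked 3 with normexp and with no floor, and miR-365 ranked 20 with normexp, 13 with the brightest probe and 11 with no floor. The members were picked from these contrasts, so nothing is read from the ranks.

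**Figure D4:**
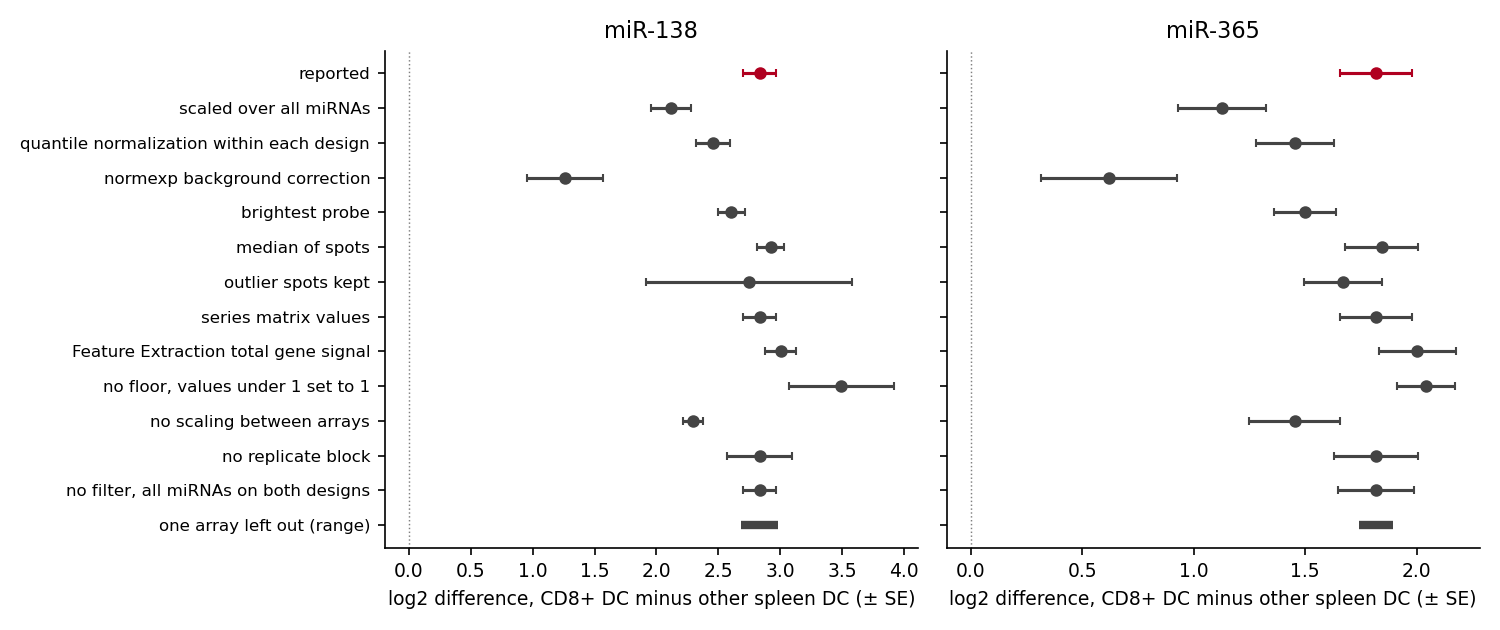
Log2 difference of CD8+ DC from the mean of the other spleen DC for miR-138 (left) and miR-365 (right) under each processing alternative, with the SE of the fit. The reported value is red, and the thick bar gives the range when 1 array is left out. All values lie above 0, and the lowest, 1.26 and 0.62, are with normexp background correction.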

How the data were processed

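The deposited array files give an intensity per spot. Per the file headers, the authors had read the scans with version 10.7.3.1 of Agilent Feature Extraction, whereas version 9.1 appears in the submitters' processing notes. The processed signal is linear, has its background subtracted and carries no scaling from one array to another. All 226800 spots equal the deposited series tables at 3 significant digits.

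Outlier spots were left out, and spots, then probes, were averaged. A miRNA was detected where a share of at least 0.5 of a probe's spots was well above background. Signals were scaled to each array's 75th percentile, taken over 88 miRNAs that every array detected. The floor, -5.30 and -5.78 on the log2 scale, came from each array's 5th percentile of detected values, summarised by the median within each design.

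A linear model of the log2 values of 175 miRNAs held a mean per population and the replicate number as a block (limma 3.58.1, R 4.3.3, eBayes, 8.52 degrees of freedom). P-values were adjusted by Benjamini and Hochberg within each comparison, with a threshold of 0.05. The replicate number marks the array design and so pairs the arrays: same-numbered deviations correlated in all 28 pairs of populations, r 0.297 to 0.917. Part of this correlation is built in, since the floor differs between designs and gives floored miRNAs the same deviation in every population. The script was tested on simulated data. With 2 arrays per population, array number limits the precision.

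The members and lists were chosen with earlier results of these data known. Named were both members and their probes, the 5 miRNAs most like each in pattern, other arms, hairpin neighbours, and, by smallest F-test p, up to 4 of each list. The lists were GC-rich, spleen DC and activation, erythroid, lymphocyte, stromal and endothelial, muscle, epithelial, neural and myeloid (miR-223). Further miRNAs were named after their values were seen. Alternatives covered scaling, background, probe and spot summary, floor, outliers, filter, block, source and each array left out. miRNAs on 1 design alone were not used here.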

Additional observations from a re-analysis of the deposited data

How the results depend on the processing

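The CD8+ DC differences of both miRNAs were above 0 under all 28 alternatives run for each, and their values from the series tables differed from the reported ones by less than the spread between replicates. Both miRNAs were chosen for high CD8+ DC signals, so this sign is a description. Dropping a bone marrow array, the replicate block or the filter could not move the difference from the other spleen DC. Settings without scaling and with Feature Extraction's total gene signal were chosen after seeing the data. For miR-138, CD8+ DC minus the other spleen DC (2.83) was 2.11 when scaled over all miRNAs, 2.46 with quantile normalization, 1.26 with normexp, 2.61 with the brightest probe, 3.004 with the total gene signal, 3.49 with no floor and 2.30 with no scaling, and 2.68 to 2.98 with 1 array left out. Minus the 7 other populations (3.19) it was, in that order, 2.51, 2.84, 1.14, 2.84, 3.48, 5.82 and 2.79, with 3.29 for the median of spots, 2.80 with outlier spots kept, and 3.14 to 3.23 with 1 array left out. For miR-365 the first difference (1.82) was 1.13, 1.45, 0.62, 1.499, 2.003, 2.04 and 1.45 in the same order, 1.67 with outlier spots kept, and 1.74 to 1.89 with 1 array left out. The second (1.77) was 1.02, 1.37, 0.44, 1.45, 1.96, 1.97 and 1.48, with 1.63 and 1.71 to 1.83.

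The miR-138 call for CD4+ minus CD4-CD8- DC (0.99) lost its threshold when scaled over all miRNAs (1.09, adjusted p 0.0555), with normexp (0.043, adjusted p 1), with outlier spots kept (0.94, adjusted p 0.895), with no filter (0.99, adjusted p 0.192) and with no replicate block (0.99, adjusted p 0.144), and the difference was 0.69 to 1.296 with 1 array left out (limma). Their mean minus CDP (0.50) lost it with normexp (0.021, adjusted p 1), outlier spots kept (0.47, adjusted p 0.747) and no replicate block (0.50, adjusted p 0.164), and was 0.35 to 0.65 with 1 array left out. Both calls also lost their threshold when certain single arrays were left out, as given above. Where outlier spots were kept, 1 spot on the shorter miR-138 probe of monocytes replicate 1 read 4386 and raised the probe mean to 436, which widened the fitted spread of miR-138. No other member call changed without the replicate block. For the remaining losses the cause was not tested.

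Differences of miR-365 near 0 changed sign. MDP minus MP (0.04) was -0.026 with no floor, -0.30 with no scaling, and -0.20 to 0.28 with 1 array left out. PDC minus CDP (0.06) was -0.23 scaled over all miRNAs, -0.080 with quantile normalization, -0.028 with normexp, and -0.082 to 0.21 with 1 array left out. The mean of CD4+ and CD4-CD8- DC minus CDP (0.07) was -0.27, -0.11, -0.0044, and -0.072 to 0.22 in the same order. PDC minus monocytes (0.07) was -0.90 with normexp (adjusted p 0.0446), where the median of all 175 was -0.85 and 102 were called lower, and -0.083 to 0.23 with 1 array left out, and CD4+ minus CD4-CD8- DC (-0.16) was -0.32 to -0.01. Relative to the median of all tested miRNAs, miR-365 differed by -0.054 in PDC minus monocytes with normexp, by 0.0067 in PDC minus CDP scaled over all miRNAs (median -0.24) and by 0.0090 in MDP minus MP with no scaling (median -0.31). For the other changes of sign the cause was not tested.

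Counts of called miRNAs behind the percentages moved too, by limma. For CD8+ DC minus the other spleen DC (58) they ran from 4, with normexp, to 66. Ranges were 29 to 123 against the 7 other populations (108), 0 to 23 for MDP minus MP (18), 0 to 2 for CDP minus MDP (0), 16 to 81 for monocytes minus MDP (66), 33 to 83 for PDC minus CDP (66), 35 to 113 for PDC minus monocytes (71), and 0 to 11 for CD4+ minus CD4-CD8- DC (8). The mean of CD4+ and CD4-CD8- DC minus CDP (88) ran from 45 to 485, the latter with no filter over 604 miRNAs.

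Testing only the miRNAs detected on all arrays gave no value, since neither member was among them. Slide as a block is the same split as the replicate number and was not a separate fit. miR-138 was at the floor on 12 of 16 arrays and miR-365 on 7.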
